A study of Cyanidioschyzon merolae with 8 samples.

Results

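Cells of Cyanidioschyzon merolae, a single-celled red alga adapted to hot and acidic springs, were kept in darkness and then given red light for 30 min, and their messenger RNA was compared with that of the matching dark control. The comparison covers 4385 nuclear genes, those on the 20 nuclear chromosomes that the authors tested and that had a level above 0 in both conditions, out of 5092 gene IDs in the deposited table. Of 4793 nuclear IDs, 404 were not tested by the authors, and a further 4 were tested but listed at 0 in the dark control. Both conditions used wild-type cells of strain 10D in 2 biological replicates, RL(-) for the dark control and RL(+) for red light, with no other treatment named for either. Before that, cultures had grown in continuous light (100 µmol m-2 s-1) at 42 °C and pH 2.3. The labels state 36 h of darkness for the blue light experiment of the same study and call the cells of the red light experiment dark kept, without a duration of their own. They place the measurement of red light at 630 nm and give no intensity for it. The blue light experiment, set beside the red one below, has 2 replicates each of BL(-), its dark control, and BL(+), given light for 30 min. The measurement of its light is placed at 365 nm.

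A C. merolae cell has 1 nucleus, 1 mitochondrion and 1 chloroplast, and most proteins of its chloroplast are encoded in the nucleus and imported. Its photosynthetic antenna, the phycobilisome, holds blue-green bilin pigments that absorb orange and red light and pass the energy to chlorophyll a. Red light is therefore both a possible signal and an energy source, and illumination after darkness is known to change the expression of nuclear genes in algae, among them genes of photosynthesis, growth and cell division.

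Each condition has 1 deposited level per gene that combines its replicates, in FPKM, which scales fragments to transcript length and to all mapped fragments. The spread between cultures therefore cannot be shown, and the depth is unknown. A gene is called higher or lower, and said to have risen or fallen, where the q-value in the authors' deposited table was under 0.05. The files pair no ID with a name or a described function, so genes are given by ID and position, and which functions they hold was not analysed here.

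Red light was followed by many modest falls and fewer, steeper rises. By the q-values in the authors' deposited table, 634 nuclear genes rose, which is 14.5% of the 4385, and 1203 fell, which is 27.4%, so that 41.9% changed in either direction. The median gene that rose changed 2.81-fold and the median gene that fell 2.19-fold. Rises outnumbered falls among the steep changes: of the genes at least 4-fold apart, 184 rose and 84 fell, and of those at least 8-fold apart, 62 rose and 9 fell. The called log2 ratio nearest to 0 was -0.64, that of CMH159C. The median log2 ratio of all 4385 genes was -0.26, with quartiles of -0.81 and 0.41 and a range from -5.07 to 6.74. At any q-value 2669 genes were lower under red light and 1716 higher.

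The split between directions depends on the centre of the scale. Of the genes called and at least 2-fold apart, 505 rose and 784 fell, so 39.2% were higher. With ratios taken relative to the median gene instead, the same rule gave 622 higher and 469 lower, or 57.0% higher. FPKM values are shares of a total, and the nuclear share of all summed FPKM was 93.5% in the dark and 85.8% under red light. The chloroplast share was 6.50% in the dark and 14.2% under red light, and 25 of the 52 tested chloroplast genes were higher and 1 was lower. The log2 ratio of the summed nuclear FPKM was -0.14. Whether each cell held less nuclear messenger RNA under red light or more chloroplast RNA cannot be told apart from these values, and neither can a change in cell number. The libraries were made from oligo(dT)-selected RNA, and whether that selection passed chloroplast RNA equally in both conditions was not tested.

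**Figure D1:**
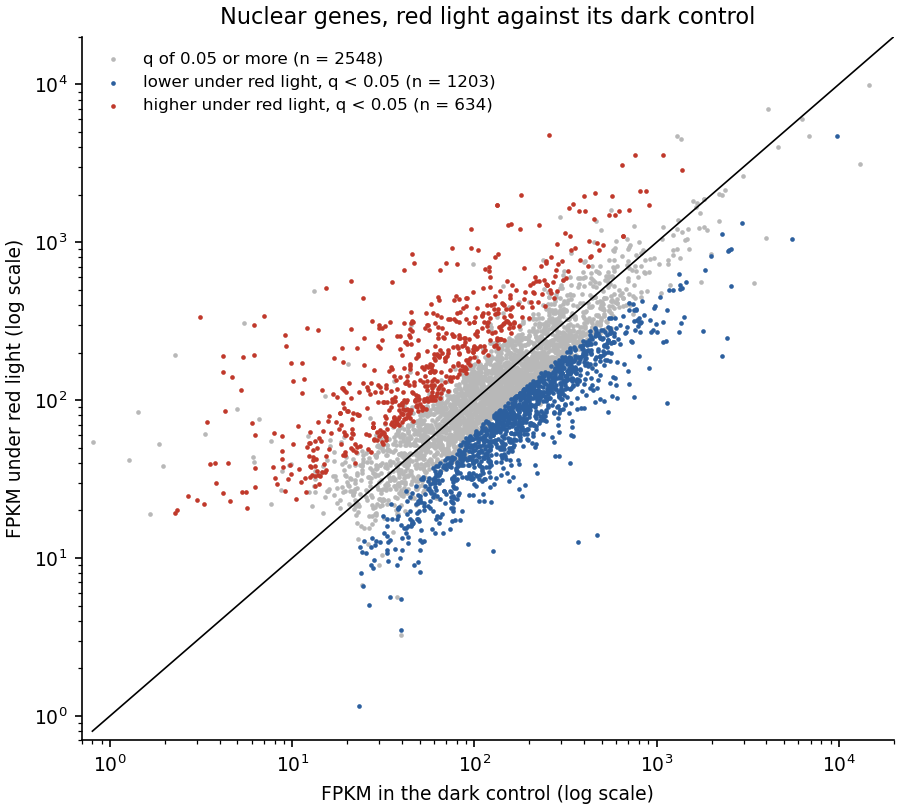
Each point is 1 of the 4385 nuclear genes, with its FPKM in the dark control on the horizontal axis and its FPKM under red light on the vertical axis, both log scales, and the line marks equal levels. The 634 genes that rose (red) lie above the line, with a median dark level of 54.5 FPKM and a median rise of 2.81-fold, and the 1203 that fell (blue) lie below it, with a median dark level of 177 FPKM and a median fall of 2.19-fold.

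The genes that rose most came from very low levels in the dark. CMN328C (chromosome 14, 817565 to 818750) went from 3.12 FPKM in the dark to 334 FPKM under red light, a log2 ratio of 6.74. CMO111C (chromosome 15, 285367 to 286284) went from 6.96 to 341 FPKM (log2 ratio 5.62). CMO306C (chromosome 15, 763738 to 764899) went from 4.19 to 189 FPKM (log2 ratio 5.50). These 3 transcripts were thus scarce in dark-kept cells and, under red light, above the median nuclear level of 108 FPKM. CMI172C rose from 4.18 to 151 FPKM, CMN019C from 5.39 to 189, CMS308C from 15.4 to 512 and CMT305C from 6.13 to 192. CMK291C rose from 4.67 to 139 FPKM, CMS159C from 9.15 to 259 and CMN235C from 21.0 to 571. The log2 ratios of these 7 genes lay between 4.76 and 5.18. The q-values of the 10 genes in the authors' deposited table ran from 0.00045, the smallest in the comparison, to 0.0283 for CMN328C and CMI172C. In all, 63 nuclear genes were under 10 FPKM in the dark, of which 44 rose and 0 fell. Of the 63, 27 reached at least 50 FPKM under red light. That set was picked on the denominator of the ratio, which favours rises. Picking on the lit level gave the reverse: 20 genes lay under 10 FPKM there, with 16 called lower and 0 higher. Such counts are therefore descriptive only.

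The same 10 genes were read in the blue light experiment, which has its own dark control and shares no library with the red one. Levels set side by side across the experiments carry a limit, since a common scaling of their libraries by the authors is not stated. Under blue light 21.8% of all genes tested in both experiments were higher, and 72.4% of those that rose under red. In the authors' deposited table, 9 of the 10 were also higher under blue light, with log2 ratios from 1.05 for CMN019C to 7.71 for CMO306C. The exception was CMN235C, at 1721 FPKM in the dark control of blue and 1885 under blue light, with q = 0.840 in the authors' deposited table. Its level of 571 FPKM under red light lay below that other dark control, whereas the other 9 genes under red light exceeded theirs. For 8 of the 10 the dark control of red was at least 2-fold below the dark control of blue. CMO306C and CMT305C differed from that: their dark levels were 4.19 and 6.13 FPKM in the red experiment and 4.55 and 4.82 in the blue.

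Of the 10 largest falls among protein-coding genes, 8 started from above the median dark level of 124 FPKM. The positions here are those of the deposited table, whose genome build is not stated. CMA021C (chromosome 1, 57705 to 60126) went from 2279 FPKM in the dark to 192 under red light, a log2 ratio of -3.57. CME102C (chromosome 5, 285092 to 286136) went from 1146 to 96.5 FPKM, which is also a log2 ratio of -3.57. CMK010C (chromosome 11, 24881 to 26285) went from 2439 to 246 FPKM (log2 ratio -3.31). Each of the 3 was thus among the abundant transcripts in the dark, and CMA021C and CMK010C stayed above the median level under red light. CMR409C fell from 334 to 39.9 FPKM, CME101C from 91.9 to 12.2, CMR435C from 182 to 24.6 and CMT259C from 39.6 to 5.48. CMA042C fell from 752 to 105 FPKM, CMQ328C from 1803 to 272 and CMF032C from 289 to 44.4. The log2 ratios of these 7 lay between -3.07 and -2.71. All 10 had a q-value of 0.00045 in the authors' deposited table, and all 10 were called lower under blue light as well. Under blue light 18.9% of all genes tested in both experiments were lower, and 42.9% of those that fell under red. CMK010C differed most in size between the lights: under blue it went from 1529 to 8.21 FPKM (log2 ratio -7.54). CMT259C went from 23.9 to 11.5 FPKM under blue light, with a log2 ratio of -1.06. Whether the responses to the lights differ was not tested.

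The 10 protein-coding genes above were reached by leaving out IDs at ribosomal RNA positions, a step chosen after their values were seen. Ribosomal RNA carries no long poly(A) tail, and the libraries were made from RNA selected on oligo(dT) beads. Of the deposited IDs, 9 lie in the reference annotation between the same neighbouring genes as ribosomal RNA entries, 5 of them were tested, and all 5 were lower under red light. EPlCMEG00000000070 on chromosome 17 stood at 468 FPKM in the dark and 13.9 under red light, a log2 ratio of -5.07, and EPlCMEG00000000047 on chromosome 18 at 371 and 12.6. EPlCMEG00000000086 stood at 23.3 and 1.15 FPKM, EPlCMEG00000000089 at 126 and 11.0, and EPlCMEG00000000057 at 39.5 and 3.49. These 5 were thus among the 10 lowest ratios of all eligible genes, and none was called under blue light. Dark levels in the blue experiment were 22.4 FPKM for EPlCMEG00000000070, 48.2 for EPlCMEG00000000047 and 1.86 for EPlCMEG00000000086. For those IDs the red dark control exceeded the blue one by log2 differences of 2.94 to 4.38. Set against the blue dark control, the red light levels had log2 ratios of -0.69 for EPlCMEG00000000070, -1.93 for EPlCMEG00000000047 and -0.69 for EPlCMEG00000000086. The reason for the different dark levels was not tested. EPlCMEG00000000089 and EPlCMEG00000000057 had similar dark levels in both experiments, at 111 and 44.7 FPKM in the blue. The part of this RNA in other results was not tested. Without these 5 IDs the counts were 634 higher and 1198 lower.

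**Figure D2:**
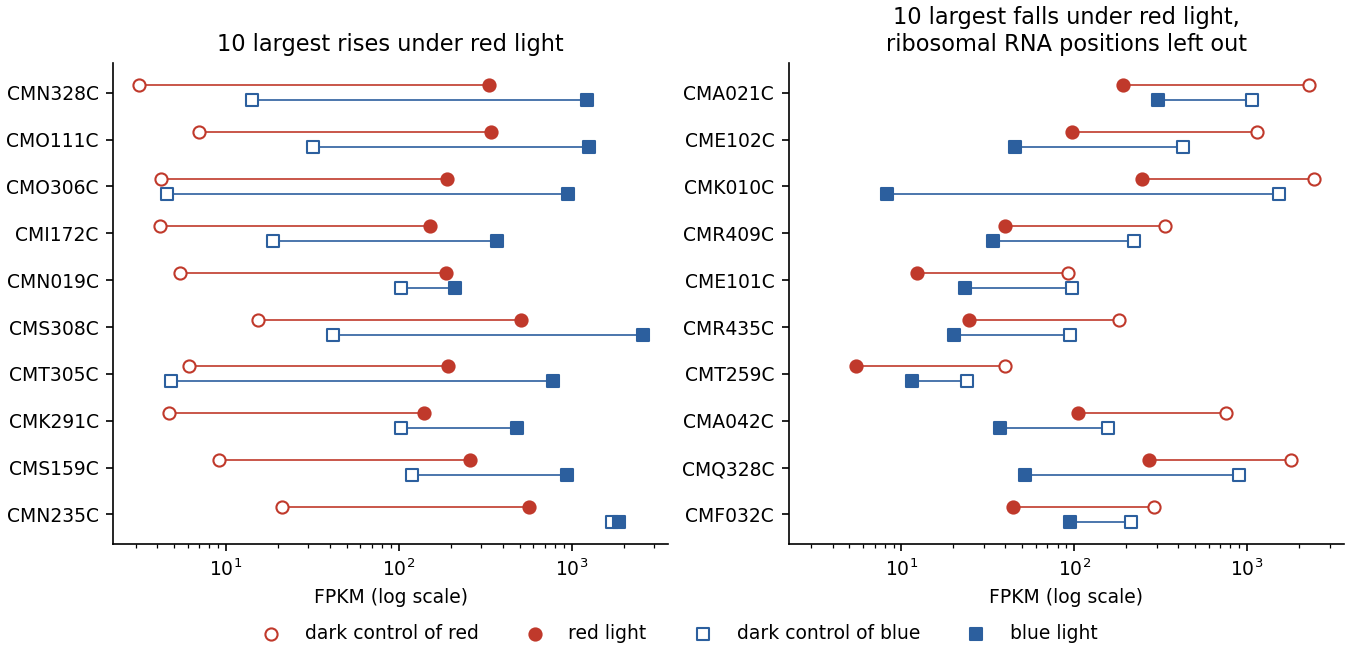
The left panel shows the 10 largest rises and the right panel the 10 largest falls without ribosomal RNA positions, with FPKM on a log axis. Circles are the red light experiment and squares the blue, open for the dark control and filled for light. The 9 rising genes other than CMN235C move up under both lights, and all 10 falling genes move down under both.

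The most abundant transcripts differed between dark and red light. Of the 100 nuclear genes with the highest dark levels, 40 fell and 4 rose, while of the 100 highest under red light 42 rose and 7 fell. The lists shared 47 genes. The share of the members' summed FPKM held by the top 100 was 22.3% in the dark and 22.4% under red light. Since each list was drawn from a level that enters the ratio, these counts describe the turnover and test nothing.

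CMJ101C, on chromosome 10 at 295921 to 296640, had the highest red light level of the rising genes eligible for naming. It went from 256 FPKM in the dark to 4784 under red light, a log2 ratio of 4.22, and the authors' deposited table gives q = 0.00770. Under blue light it went the other way, from 216 to 54.2 FPKM, and was called lower. Its dark levels were thus close in both experiments, and its lit levels lay on opposite sides of them. CMT172C rose from 756 to 3569 FPKM under red light, and from 726 to 2446 under blue. For the next 3 the dark controls differed: CMO250C rose from 1089 to 3570 FPKM, CMJ148C from 645 to 3066 and CMR315C from 1371 to 2853. In the dark control of blue these 3 genes stood at 7156, 3177 and 3891 FPKM, each above its level under red light. The q-value of CMR315C, 0.0361 in the authors' deposited table, was the weakest of the 5.

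The 5 falling genes with the highest dark levels fell in both experiments. CMK238C (chromosome 11, 656636 to 657280) went from 5550 to 1050 FPKM (log2 ratio -2.40), and the authors' deposited table gives q = 0.00045. CML162C fell from 2942 to 1329 FPKM, CMS163C from 2562 to 911, CMM224C from 2542 to 530 and CMS301C from 2509 to 889. Their log2 ratios under red light ran from -2.26 to -1.15. Under blue light CMM224C and CMS301C had log2 ratios of -4.19 and -5.13, to 113 and 62.2 FPKM. In the dark control of blue these 5 transcripts stood at 1724 to 3860 FPKM.

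The direction of the calls varied with the level before light. Genes were divided into 10 equal classes. In the lowest class by dark level, from 0.810 to 34.6 FPKM, 45.3% rose and 6.15% fell. In the highest class, from 383 to 14596 FPKM, 5.69% rose and 43.1% fell. The dark level is also the denominator of the ratio, so class and ratio are not independent. When genes were instead classed by the dark control of blue, which does not enter the ratio, genes of the lowest class still rose most often, at 33.9%, while 15.7% fell. Classes 4 to 9 held 8.22% to 11.0% higher and 29.5% to 33.9% lower. The highest class, from 438 to 27373 FPKM, then held 22.6% higher and 18.9% lower. Rises were thus commonest at both ends of that scale. It is not fully independent of the ratio, since a gene can be in its highest class and yet low in the dark control of red. CMN234C and CMN235C, both called higher, stood at 5806 and 1721 FPKM in the dark control of blue and at 133 and 21.0 in that of red. How far such genes make up the rises of the highest class was not tested. Spearman's rho between log2 ratio and level over 4385 genes was -0.41 with the gene's own dark control and -0.10 with the other, a description across genes that share their libraries.

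**Figure D3:**
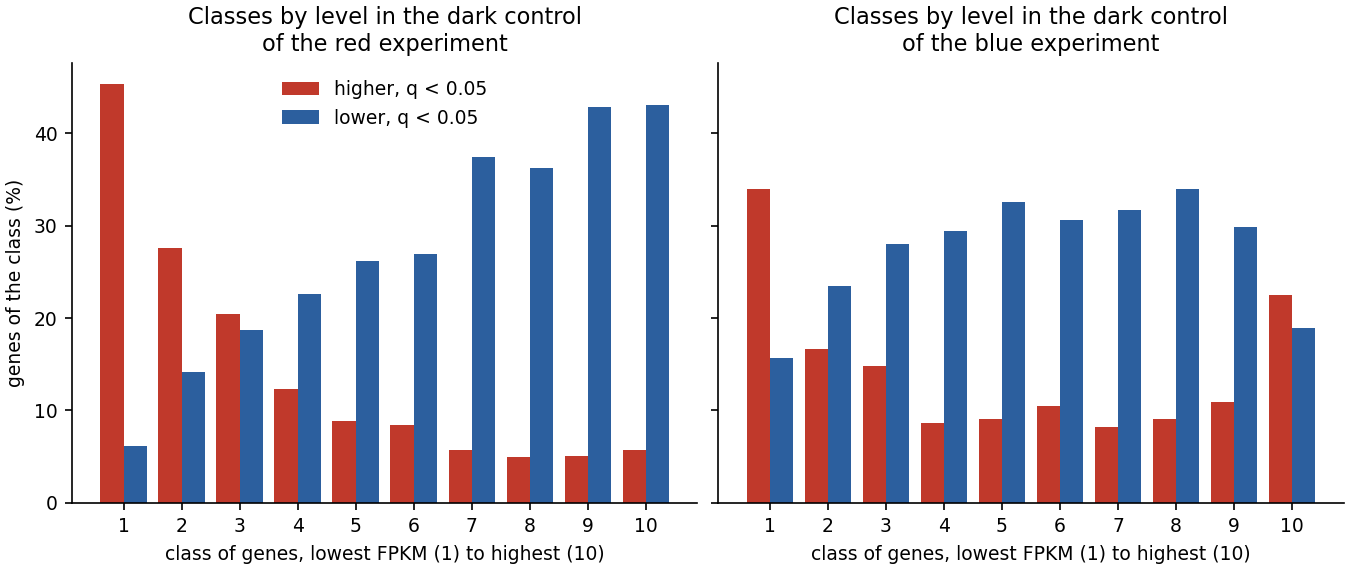
Bars give the percentage of nuclear genes called higher (red) and lower (blue) under red light in each of 10 classes, ordered by FPKM in the red dark control (left) or the blue dark control (right). The fall in rises from 45.3% to 5.69% on the left becomes, on the right, 33.9% in the lowest and 22.6% in the highest class with fewer between.

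The calls were also set beside the other dark control. A gene's own dark level enters both its ratio and the difference between the controls, so the 2 are not independent. Pearson's r between the log2 ratio and the log2 difference, own control over other, was -0.50 over 4385 genes. The shares of rising and falling genes given here are partly fixed by that, and they are descriptive only. Of the 634 genes that rose, 249, or 39.3%, had an own dark level at least 2-fold below the other dark control, and 46 at least 2-fold above it. Among the 2548 genes not called, 9.11% were at least 2-fold below and 9.65% above. Of the 1203 genes that fell, 257, or 21.4%, had an own dark level at least 2-fold above the other and 11 at least 2-fold below. The red light level itself lay above the other dark control for 482 of the 634 rising genes and below it for 1038 of the 1203 falling genes. Among the 3344 genes whose dark controls differed less than 2-fold, 339 rose, which is 10.1%, and 935 fell, which is 28.0%. In that set 325 of the 339 and 894 of the 935 lay on the same side of either control. That is largely fixed by the choice of the set, since calls at least 2-fold apart cannot change side in it. Such calls made up 242 of the 339 and 574 of the 935. The rising genes of the set had a median log2 ratio of 1.27 against their own control and 1.22 against the other. For the 935 falling genes the medians were -1.09 and -0.73. What made the dark controls differ was not tested.

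Long genes fell more often than short ones, a gradient given as a description without a test. Coding length was known for 4369 of the 4385 genes, from the reference table of assembly ASM9120v1. In the shortest of 4 equal classes, 138 to 828 bases, 16.8% rose and 12.5% fell, with a median log2 ratio of 0.05. In class 2 the shares were 18.7% and 21.4%, and in class 3 15.2% and 27.5%. In the longest class, 1940 to 18063 bases, 7.06% rose and 48.2% fell, with a median of -0.71. Under blue light the medians of the same classes lay between -0.08 and 0.03. The gradient was present at low, middle and high expression: in 3 equal classes by the other dark control, from low to high, the longest genes had medians of -0.57, -0.77 and -0.98, and the shortest 0.38, -0.01 and -0.03. With the running trend over length removed, the direction was read from the corrected ratio, while the q-values still came from the uncorrected levels. By that rule 671 genes counted as higher and 1155 as lower, so some genes called lower counted as higher. Of those at least 2-fold apart 565 were higher and 348 lower, or 61.9% higher. The measure of length is the coding part alone, and neither RNA integrity nor library size is given, so their part in the gradient was not tested.

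**Figure D4:**
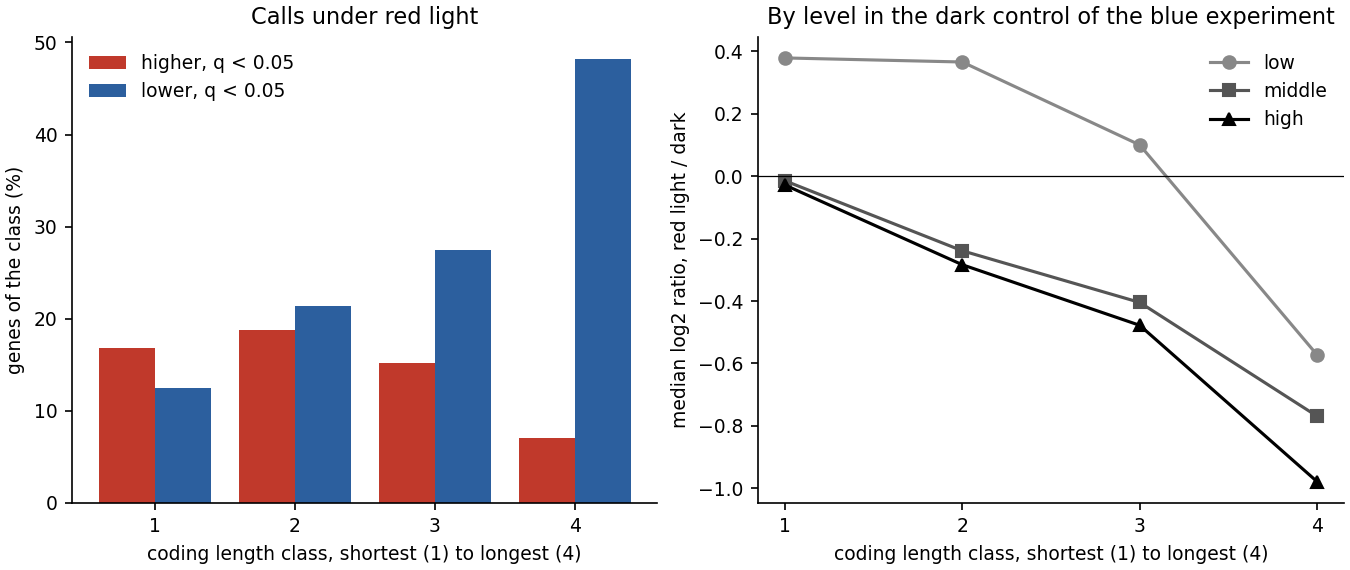
On the left, bars give the percentage of genes called higher (red) and lower (blue) in each of 4 classes of coding length, from shortest to longest, where lower calls go from 12.5% to 48.2%. On the right, lines give the median log2 ratio of each class within 3 groups of genes by FPKM in the blue dark control, and the lines end at -0.57, -0.77 and -0.98 in the longest class.

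Calls of the same direction under both lights numbered 458 for rises and 509 for falls. Of 633 rising genes also tested under blue, 458 were higher under blue light, which is 72.4% of them and 48.2% of the 950 genes higher under blue. Over all 4351 genes tested under both, 21.8% were higher and 18.9% lower under blue light. Of 1186 falling genes, 509 were lower under blue light, 42.9% of them and 61.8% of the 823 genes lower under blue. Opposite calls were few: 21 genes were higher under red and lower under blue, CMJ101C among them, and 24 were lower under red and higher under blue. The median log2 ratio under blue light was 1.51 for the genes that rose under red and -0.67 for those that fell.

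All 20 nuclear chromosomes held genes of both kinds. The share that rose ran from 10.2% on chromosome 4 to 20.6% on chromosome 10, and the share that fell from 18.4% on chromosome 10 to 35.8% on chromosome 1. Chromosome 10, with 223 genes, was thus the only one of the 20 with more rises than falls, 46 against 41, and its median log2 ratio was -0.01. Of the 159 genes within 20 kb of the first or last gene of a chromosome, 13 rose, or 8.18%, and 38 fell, or 23.9%. Over all 4385 genes the shares were 14.5% and 27.4%, and the difference was not tested.

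Neighbouring genes resembled each other slightly. Over 4183 pairs of adjacent genes, each alone in its locus, Pearson's r between their log2 ratios was 0.14, a description over pairs that share libraries and members. A neighbour of a rising gene rose in 21.5% of cases and a neighbour of a falling gene in 12.1%. Likewise 34.7% of the neighbours of falling genes fell, against 22.7% of the neighbours of rising genes. Unbroken runs of at least 4 tested genes called the same way numbered 4 for rises and 37 for falls. Falls were the commoner call, at 27.4% of all 4385 genes beside 14.5% for rises, so the counts of runs are not directly comparable. Whether runs were more frequent than these shares give was not tested. The runs described next were picked for their length or their size after the values were seen.

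The longest rising run, CMS306C to CMS311C, lies on chromosome 19 at 792338 to 803027. CMS306C went from 329 to 1653 FPKM, CMS307C from 8.84 to 37.5, CMS308C from 15.4 to 512, CMS309C from 40.9 to 307 and CMS311C from 45.4 to 838. Both flanks lacked a rise, with CMS304C at 164 and 182 FPKM and CMS312C at 75.7 and 79.7. Under blue light CMS307C, CMS308C and CMS309C were higher too, while CMS306C stood at 4232 FPKM in the dark control of blue and 2383 under blue light and CMS311C at 117 and 193, and neither was called.

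A second rising run, CMN233C to CMN237C, lies on chromosome 14 at 575155 to 583037. CMN233C went from 46.7 to 130 FPKM, CMN234C from 133 to 1714, CMN235C from 21.0 to 571 and CMN237C from 13.8 to 278. Here the dark controls split the run: CMN234C and CMN235C stood at 5806 and 1721 FPKM in the dark control of blue and were not called under blue light, while CMN233C and CMN237C, at 67.4 and 37.8 FPKM there, were higher. In the run CMR237C to CMR244C on chromosome 18 all 4 genes rose under both lights. There CMR237C went from 12.1 to 286 FPKM, CMR238C from 60.3 to 197, CMR240C from 65.6 to 151 and CMR244C from 227 to 565 under red light.

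Of the falling runs, 3 are described. CMH156C to CMH165C, 7 genes on chromosome 8 at 391506 to 420890, had log2 ratios from -1.53 to -0.64, and 3 of the 7 were lower under blue light. CMA017C to CMA025C, 6 genes on chromosome 1 at 49957 to 75189, held CMA021C and had ratios from -3.57 to -0.93. The steepest of these 3 falling runs was CME096C to CME102C on chromosome 5 at 270675 to 286136. There CME096C fell from 540 to 83.6 FPKM, CME099C from 155 to 76.4, CME100C from 1407 to 335, CME101C from 91.9 to 12.2 and CME102C from 1146 to 96.5. Of these 5 genes, 4 were lower under blue light too.

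**Figure D5:**
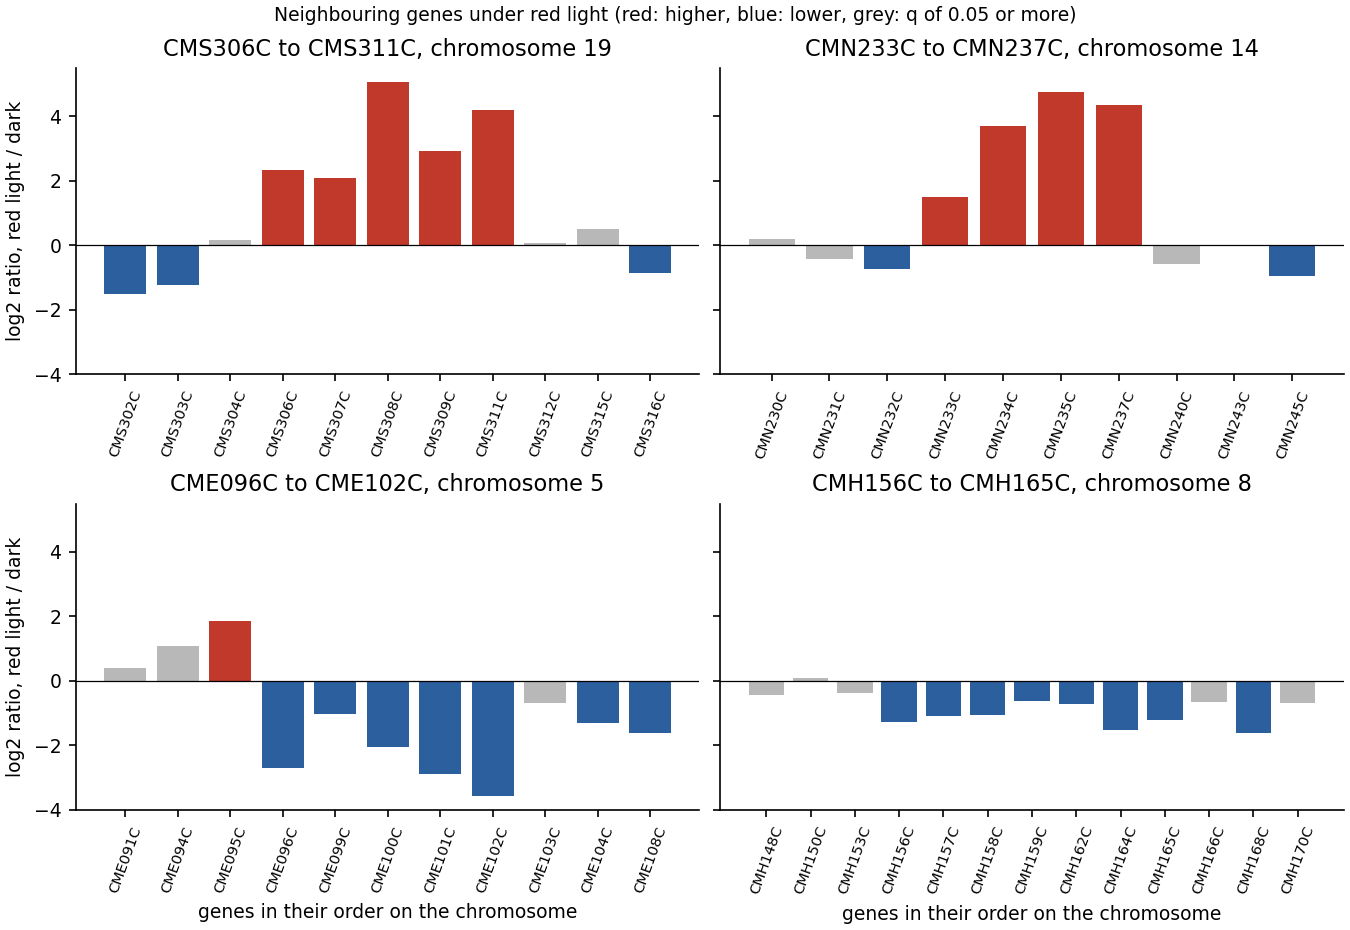
Bars give the log2 ratio of red light over dark for neighbouring genes in chromosome order, red for genes called higher, blue for lower and grey for those not called. The upper panels show rising runs on chromosomes 19 and 14 with uncalled or falling genes on either side, and the lower panels falling runs on chromosomes 5 and 8, the latter with ratios no lower than -1.53 inside the run.

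Size alone did not make a call. There were 28 genes at least 4-fold apart that did not pass the threshold, 24 of them higher under red light and 4 lower. Their median dark level was 8.22 FPKM. Of these, 8 have loci under 300 bp. CMX001C stood at 2.26 FPKM in the dark and 193 under red light, with q = 0.0507 in the authors' deposited table. CMJ309C stood at 0.810 and 54.0 FPKM with q = 0.357, and CMI202C at 5.41 and 306 with q = 0.270, both in the authors' deposited table. High levels did not ensure a call either. CMO184C, on chromosome 15 at 460968 to 462495, stood at 13104 FPKM in the dark and 3130 under red light with q = 0.158 in the authors' deposited table, and its neighbour CMO185C at 3963 and 1067 with q = 0.0646 there. With 2 replicates a side combined by the authors, a gene that missed the threshold is not shown to be unaffected by red light.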

How the data were processed

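Libraries came from oligo(dT)-selected RNA (TruSeq mRNA kit) and were read as 75 bp pairs on a MiSeq, per the labels' protocols, which state no strand-marking step. Tools listed in the submitters' processing notes are Cuffdiff, TopHat, TopHat2 2.0.5, Trimmomatic 0.32 and FastQC 0.11.5. The genome build was not given in the sources used here. Expression was deposited by the authors as 1 FPKM value per gene and condition, with replicates combined, and a p-value and q-value per comparison. Depth is unknown and no test on libraries could be made, so the authors' deposited q-value under 0.05 made the calls. The set of tests that it covers is not given. Log2 ratios were computed from the deposited FPKM without a pseudocount. Positions are the table's own, counted from 1. Assembly ASM9120v1 gave coding lengths (99.6% multiples of 3, so without UTRs), neighbours and ribosomal RNA entries. All value columns were mapped to conditions.

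Named genes are those alone in a locus of at least 300 bp, with at least 20 FPKM in the higher condition and a call: the 10 highest and 10 lowest ratios, and the 5 highest levels in each condition. Other genes were picked after their values were seen. The members, lists and rules were chosen with earlier results of these data known. The 42 gene lists and 8 promoter motifs drawn up need descriptions, proteins or promoters and were not analysed here. Alternatives were a q-value under 0.01, Benjamini-Hochberg within the red comparison, filters on level, locus and fold, a pseudocount of 1, centring and a running median over coding length (401 genes). Scripts were tested on simulated data and run with Python 3.11.15, numpy 2.4.6, pandas 2.3.3, scipy 1.17.1 and matplotlib 3.10.9.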

Additional observations from a re-analysis of the deposited data

Results flagged for a closer look

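A further 4 nuclear IDs were tested by the authors but listed at 0 in the dark control of red, so they have no ratio and entered no count. Each had a level above 0 under red light, which is what set them apart. CMJ308C, alone in its locus, was listed at 0 in the dark and at 36.34 FPKM under red light, with q = 0.00045 in the authors' deposited table. It was also listed at 0 in the dark control of blue and at 181 FPKM under blue light. Its neighbour CMJ309C stood at 0.810 and 54.0 FPKM in the red experiment and did not pass the threshold. CMG001C was at 41.03 FPKM under red light, CMS116C at 28.27 and CMI225C at 17.96, and the authors' deposited table gives their q-values as 0.271, 0.257 and 0.250. Each of these 3 shares its locus with another ID. No fold is given against a level listed at 0, and the table does not say whether such a 0 is a failed estimate.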

How the results depend on the processing

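Calls at a q-value under 0.01 in the authors' deposited table numbered 419 higher and 830 lower, and 35.4% of those at least 2-fold apart were higher, beside 39.2% in the report. The 2-fold minimum left 784 lower genes. The share of 2-fold calls that were higher was 57.0% with ratios centred on the median and 61.9% with the trend over coding length removed. Both settings put the median at 0 by construction. Among genes whose dark controls differed less than 2-fold, an alternative chosen after seeing the data, 339 rose and the share was 29.7%. A Benjamini-Hochberg adjustment within the red comparison gave 663 higher and 1265 lower, and loci of at least 300 bp with 1 ID gave 619 and 1172. The minimum of 10 FPKM in either condition removed no gene. Of the 30 named genes, 6 were no longer called at a q-value under 0.01: CMN328C, CMI172C, CMR315C, CML162C, CMM224C and CMS301C. The pseudocount, centring and length settings keep the deposited q-values, so they move no gene across the threshold. With the length trend removed a called gene could still change direction. No paired analysis was possible because the table has no value per library, and no replicate could be left out.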
